A study of Homo sapiens with 6 samples.

Results

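The 9 genes described here encode the enzymes that write and remove DNA methylation and proteins that read it: the DNA methyltransferases DNMT1, DNMT3A and DNMT3B, the maintenance cofactor UHRF1, the dioxygenases TET1, TET2 and TET3, and the methyl-CpG-binding-domain proteins MBD2 and MBD3. They were chosen by name, and each of the 9 symbols matched 1 of the 60662 rows of the deposited count table. All 9 passed the filter on low counts, beside 24695 genes tested in all. The cells were DU-145, a human prostate cancer line, stably carrying a tetracycline-inducible hairpin that targets the transmembrane mucin gene MUC1. The 3 DOX-positive cultures received doxycycline (DOX) for 7 days and the 3 DOX-negative cultures received vehicle for 7 days. Both groups were then exposed to interferon-gamma at 10 ng/ml for 24 hours. Neither cells without interferon-gamma nor cells given DOX with a control hairpin were analysed here, so each difference measures DOX and the MUC1 hairpin together in stimulated cells. Only RNA was measured: no value below is a level of DNA methylation or of protein.

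Cytosine methylation at CpG dinucleotides is copied after replication by DNMT1, which UHRF1 guides to hemimethylated DNA, while DNMT3A and DNMT3B methylate sites that carried no mark. TET enzymes oxidise 5-methylcytosine, after which the base can be lost through replication or base excision repair. MBD2 binds methylated CpG and recruits the NuRD remodelling and deacetylase complex. MBD3 holds the same position in a separate NuRD complex, and in mammals its domain binds methylated CpG poorly. In prostate cancer, genes such as GSTP1 are known to be silenced by promoter methylation, and the MUC1-C subunit has been linked to DNMT1 and DNMT3B expression in carcinoma cells.

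The hairpin's target behaved as labelled. MUC1 had 1.53, 1.31 and 1.32 CPM (reads of the gene relative to all reads, scaled to library size by TMM) in DOX-positive libraries, against 20.4, 21.8 and 22.2 CPM in DOX-negative libraries. Total counts ran from 105358357 to 150921436 reads in DOX-positive libraries and from 87739734 to 138844816 reads in DOX-negative libraries. The epithelial markers KRT8, KRT18, KRT19, EPCAM and CDH1 were all present, and their summed level was 2261 to 2350 CPM in DOX-positive cells and 813.1 to 863.6 CPM in DOX-negative cells. Of the prostate lineage markers, KLK3 had 0 reads in every library and HOXB13 had 0 CPM in DOX-positive cells and averaged 0.00454 CPM in DOX-negative cells. KLK2 averaged 0.00673 CPM in DOX-positive cells and 0.0113 CPM in DOX-negative cells. These HOXB13 and KLK2 means lie under a floor of 3 reads per library (0.0204 to 0.0328 CPM), so no difference is read from them. The 5 leukocyte markers summed to 0.291 to 0.404 CPM in DOX-positive cells and 0.996 to 1.13 CPM in DOX-negative cells, nearly all of it CD14, with CD3E at 0 reads. The 6 stromal and endothelial markers summed to 4.77 to 5.18 CPM in DOX-positive cells and 6.38 to 7.34 CPM in DOX-negative cells, nearly all of it COL1A1, with LUM at 0 reads. The part of these marker differences in the results was not tested, and in whole cultures fewer cells of a kind and less RNA per cell cannot be told apart.

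In DOX-positive cells 6 of the 9 genes fell, 1 rose and 2 did not pass at an edgeR adjusted p under 0.05. The largest fall was in DNMT3A and the next in TET1, followed by MBD3 and DNMT3B. TET2 and TET3 fell by less than 10 percent. MBD2 was the gene that rose, while DNMT1 and UHRF1 did not pass. The same test called 56.5% of all genes, 28.9% as lower and 27.6% as higher, so a call by itself is common in this comparison. Scaling by total reads alone turned the 6825 higher and 7132 lower calls into 4689 and 9579, and DNMT1 then counted among 7 of the 9 genes called lower. With DESeq2 size factors, with the DESeq2 Wald test, or without DOX-negative replicate 1 or 3, 4 of the 9 were called lower. The median log2 fold change of the 9 genes was -0.13, against -0.04 over all genes tested. CPM values did not overlap between the groups for 7 of the 9 genes, and for 62.4% of all genes.

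**Figure D1:**
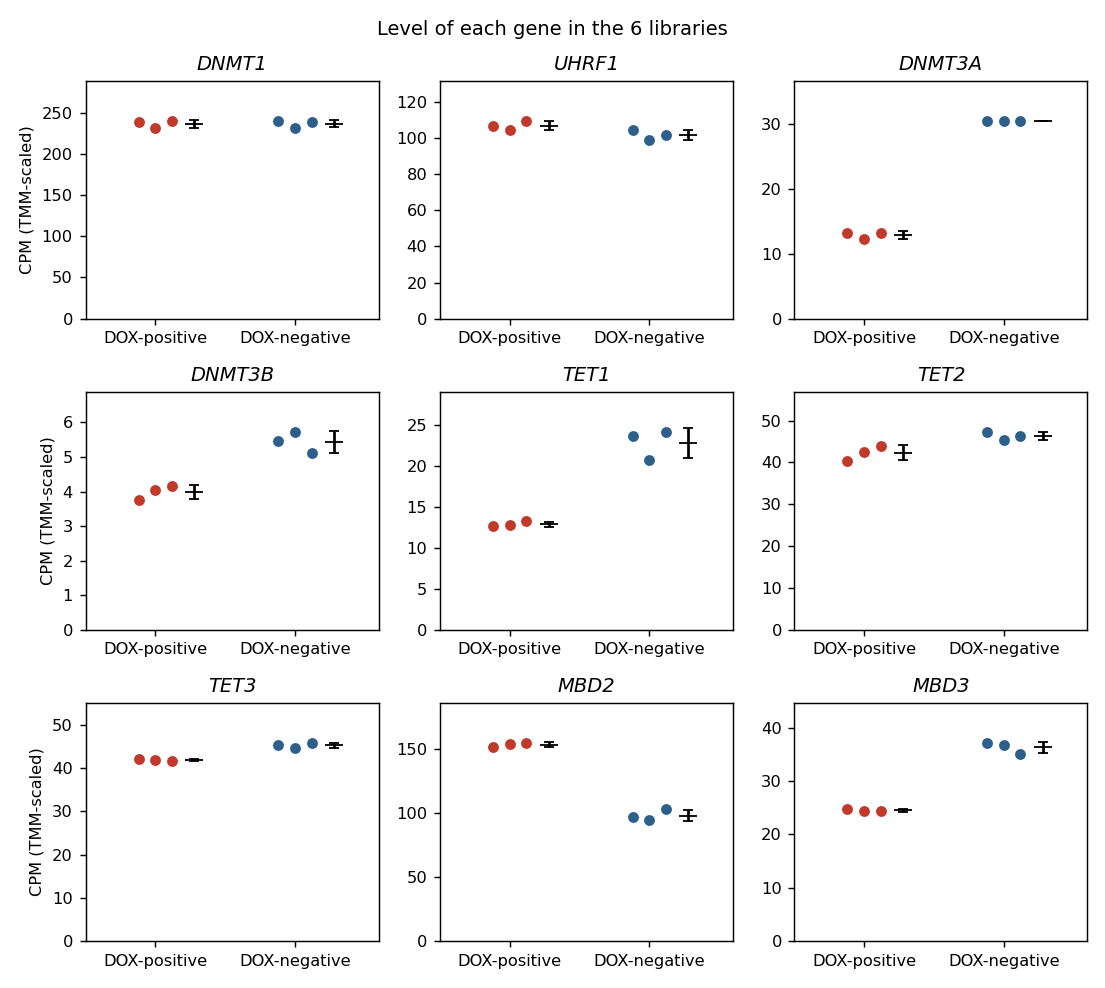
CPM (TMM-scaled, vertical axes from 0) of each of the 9 genes in 3 DOX-positive and 3 DOX-negative libraries. Points are libraries and the black mark is the mean with its SD; the groups are apart for DNMT3A, DNMT3B, TET1, TET2, TET3, MBD2 and MBD3 and overlap for DNMT1 and UHRF1.

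**Figure D2:**
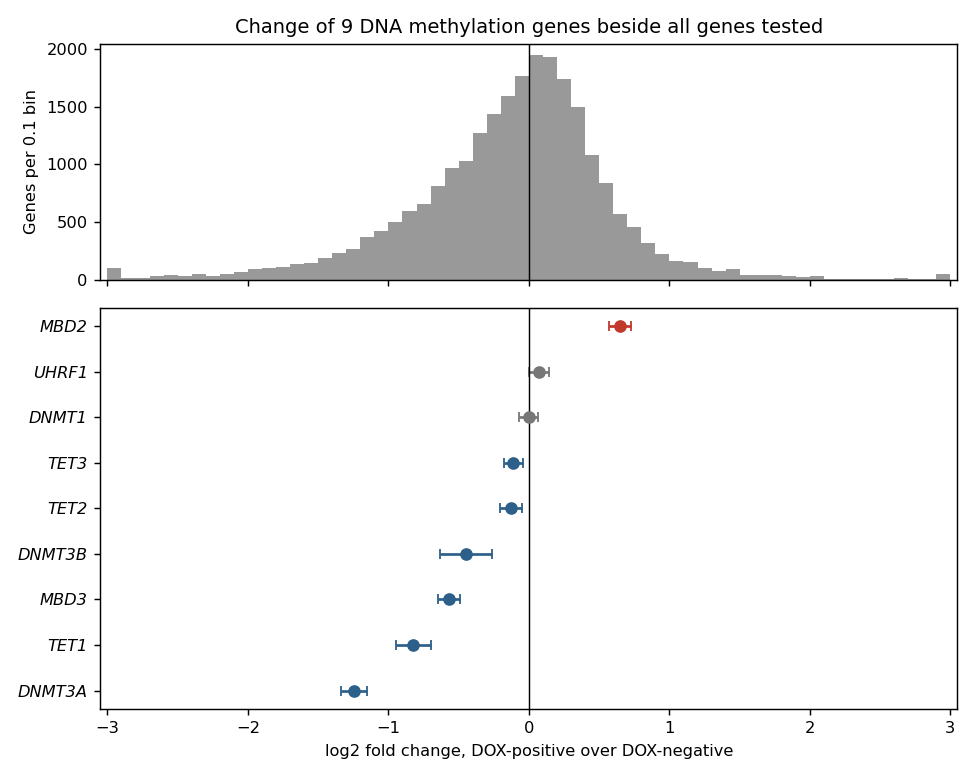
Upper panel: number of genes per bin of log2 fold change (DOX-positive over DOX-negative) among 24695 genes tested, with values beyond 3 placed in the end bins. Lower panel: log2 fold change of the 9 genes with 95% confidence intervals, red for higher, blue for lower and grey for not called; DNMT3A lies at -1.24 and MBD2 at 0.65.

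The CpG content of the promoters of the 4 genes with the largest changes is given with their sequences, because these genes act on or read this dinucleotide. Each sequence is the stretch of a 250-base window before the RefSeq transcription start (GRCh38.p14) that also lies upstream of the gene in GENCODE 29, written on the strand of the gene, with CpG in capitals.
DNMT3A (chr2:25342591-25342733, - strand): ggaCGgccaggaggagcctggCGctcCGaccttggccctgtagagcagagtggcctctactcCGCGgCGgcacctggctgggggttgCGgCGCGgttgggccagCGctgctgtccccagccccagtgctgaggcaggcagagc
TET1 (chr10:68560087-68560336, + strand): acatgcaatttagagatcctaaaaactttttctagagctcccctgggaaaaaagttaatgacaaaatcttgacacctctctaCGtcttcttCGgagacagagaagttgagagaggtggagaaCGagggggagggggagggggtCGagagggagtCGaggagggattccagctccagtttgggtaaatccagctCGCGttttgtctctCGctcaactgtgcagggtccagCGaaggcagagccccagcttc
MBD2 (chr18:54224789-54224919, - strand): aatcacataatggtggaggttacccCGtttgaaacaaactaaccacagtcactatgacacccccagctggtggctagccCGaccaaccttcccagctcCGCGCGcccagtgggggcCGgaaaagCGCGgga
MBD3 (chr19:1592866-1593115, - strand): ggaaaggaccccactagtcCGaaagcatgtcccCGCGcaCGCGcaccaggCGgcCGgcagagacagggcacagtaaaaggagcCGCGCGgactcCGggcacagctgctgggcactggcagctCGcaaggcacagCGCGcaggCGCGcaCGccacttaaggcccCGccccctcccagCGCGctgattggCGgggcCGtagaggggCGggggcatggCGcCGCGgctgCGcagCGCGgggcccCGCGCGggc
The printed stretch of MBD3 held 12.8 CpG per 100 bases, that of DNMT3A 6.99, that of MBD2 6.11 and that of TET1 3.60. In the full 250-base windows the counts were 32 CpG for MBD3, 21 for DNMT3A, 21 for MBD2 and 9 for TET1, against a median of 11 over 27305 promoters. DNMT3A and MBD2 had equal counts in these windows, and 10 and 8 CpG in their printed stretches. A link between CpG content and the changes was not tested. Among the other 5 genes the count was 37 for TET3, 28 for UHRF1, 21 for DNMT1, 10 for TET2 and 3 for DNMT3B. RefSeq gives 1 start per gene here, and genes such as DNMT1 and DNMT3B have further starts that were not examined. The windows of DNMT1, DNMT3B and UHRF1 lie inside the gene as drawn in GENCODE 29 and not upstream of it.

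Motif words were searched on both strands of the same windows. The interferon-gamma-activated site written TTCNNNGAA occurred in 0 of the 9 windows and in 6.78% of all promoters. An E2F word (TTTCCCGC, TTTCGCGC, TTTGCCGC or TTTGGCGC) occurred in UHRF1 alone of the 9 genes and in 2.79% of all promoters. The E-box CACGTG occurred in TET2 and TET3 and in 6.49% of all promoters. The GC box GGGCGG occurred in UHRF1, TET3, MBD2 and MBD3 and in 42.3% of all promoters. CCAAT occurred in DNMT3B, UHRF1 and MBD3 and in 33.0% of all promoters. Matches of different words may share bases, and a match is a description of the letters and not of a bound site.

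DNMT3A (ENSG00000119772.16, chromosome 2, 25227855 to 25342590, minus strand of GRCh38) was the gene of the set that moved most. It had 13.2, 12.3 and 13.3 CPM in DOX-positive libraries, against 30.6, 30.5 and 30.6 CPM in DOX-negative libraries. The DOX-negative libraries were nearly equal, and every DOX-positive library lay under 14 CPM. The log2 fold change was -1.24 (SE 0.04, edgeR adjusted p = 5.71e-13). In DOX-positive cells DNMT3A stood at 0.422 of its DOX-negative level, with a 95% confidence interval of 0.396 to 0.451. This change was lower than that of all but 6.53% of the genes tested.

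DNMT3B (ENSG00000088305.18, chromosome 20, 32762385 to 32809356 on the plus strand), the other de novo methyltransferase, was the least abundant of the 9 genes. It had 3.77, 4.04 and 4.16 CPM in DOX-positive libraries, against 5.46, 5.73 and 5.11 CPM in DOX-negative libraries, which rested on 397 to 584 reads and 468 to 841 reads per library. The groups did not overlap. The log2 fold change was -0.45 (SE 0.09, edgeR adjusted p = 0.000363), with the widest interval of the set, from -0.64 to -0.26. Set against each other per length within each library, DNMT3A exceeded DNMT3B 1.35, 1.17 and 1.23 times in DOX-positive libraries and 2.16, 2.05 and 2.30 times in DOX-negative libraries. This ratio does not depend on the scaling between libraries, and its groups did not overlap (exact two-sided permutation p = 0.10, the smallest that 3 against 3 can give).

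DNMT1 (ENSG00000130816.16, chromosome 19, 10133345 to 10231286 on the minus strand), the maintenance enzyme, had nearly the same CPM in both groups. It had 239.1, 231.3 and 239.9 CPM in DOX-positive libraries, against 240.5, 232.0 and 238.5 CPM in DOX-negative libraries. The values interleaved, and the log2 fold change was 0.00 to 2 decimals (-0.00159, SE 0.03, edgeR adjusted p = 0.971). The 95% confidence interval of the fold ran from 0.953 to 1.05. That interval holds for TMM scaling only: with libraries scaled by total reads alone, which moved the median gene by -0.14, DNMT1 had a log2 fold change of -0.14 (edgeR adjusted p = 0.000338, with a range of 0.000338 to 0.990 across 14 alternatives), about as much as that shift. DNMT1 shares 83 exon bases with S1PR2 on the same strand.

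UHRF1 (ENSG00000276043.5, chromosome 19, 4903080 to 4962154 on the plus strand), the ubiquitin ligase that guides DNMT1, was likewise close between the groups. It had 106.7, 104.5 and 109.7 CPM in DOX-positive libraries, against 104.7, 98.9 and 101.5 CPM in DOX-negative libraries. The groups overlapped, since DOX-positive replicate 2 lay just under DOX-negative replicate 1. The log2 fold change was 0.07 (SE 0.03, edgeR adjusted p = 0.0821), and -0.07 with total reads alone. It passed as higher without DOX-negative replicate 1 (edgeR adjusted p = 0.0342), with a range of 0.0342 to 0.732 across the alternatives. The ratio of DNMT1 to UHRF1 per length was 1.18, 1.16 and 1.15 in DOX-positive libraries and 1.21, 1.23 and 1.23 in DOX-negative libraries, a shift of 1.05-fold whose groups did not overlap (exact two-sided permutation p = 0.10, the smallest possible).

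Per length, DNMT1 made up most of the methyltransferase transcripts in both groups. Its share of the summed TPM (a level per length: counts divided by gene length and scaled to the library) of the 3 enzymes was 92.6% ± 0.153 in DOX-positive cells and 86.7% ± 0.380 in DOX-negative cells (SD, n = 3 each). DNMT3A took 4.12% ± 0.0964 in DOX-positive cells and 9.11% ± 0.124 in DOX-negative cells. DNMT3B took 3.30% ± 0.183 in DOX-positive cells and 4.21% ± 0.283 in DOX-negative cells. None of these shares overlapped between the groups (exact two-sided permutation p = 0.10 for each of the 3, the smallest possible). The 3 shares of a library sum to the whole, so they are not separate results. The larger DNMT1 share came with a DNMT1 log2 fold change of -0.00159 in CPM.

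TET1 (ENSG00000138336.9, chromosome 10, 68560656 to 68694482 on the plus strand) fell furthest of the dioxygenases. It had 12.7, 12.7 and 13.2 CPM in DOX-positive libraries, against 23.6, 20.7 and 24.1 CPM in DOX-negative libraries. The groups were far apart although DOX-negative replicate 2 was lower than its companions. The log2 fold change was -0.82 (SE 0.06, edgeR adjusted p = 2.74e-09), a 1.77-fold lower level in DOX-positive cells. The pseudogene COX20P1 lies within TET1 on the same strand and shares no exon base with it.

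TET2 (ENSG00000168769.13, chromosome 4, 105145875 to 105279816 on the plus strand) had 40.5, 42.5 and 44.0 CPM in DOX-positive libraries, against 47.3, 45.4 and 46.2 CPM in DOX-negative libraries. TET3 (ENSG00000187605.15, chromosome 2, 73986404 to 74108176 on the plus strand) had 42.2, 41.9 and 41.7 CPM in DOX-positive libraries, against 45.4, 44.7 and 45.9 CPM in DOX-negative libraries. Both genes were lower in every DOX-positive library, by a small margin. The log2 fold change was -0.13 for TET2 (SE 0.04, edgeR adjusted p = 0.00625) and -0.11 for TET3 (SE 0.03, edgeR adjusted p = 0.00627). These calls were sensitive to the setting. TET2 lost its call with DESeq2 size factors (edgeR adjusted p = 0.0535), with the DESeq2 Wald test (0.0665) and without DOX-positive replicate 1 (0.0668), DOX-negative replicate 1 (0.0890) or DOX-negative replicate 3 (0.0546), with a range of 5.44e-06 to 0.0890 across the alternatives. TET3 lost its call with DESeq2 size factors (edgeR adjusted p = 0.0838), with the DESeq2 Wald test (0.0994) and without DOX-negative replicate 1 (0.0892) or DOX-negative replicate 3 (0.112), with a range of 3.04e-06 to 0.112.

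The makeup of the TET transcripts shifted with the fall of TET1. TET1 took 18.3%, 18.1% and 18.5% of the summed TET TPM in DOX-positive libraries and 27.2%, 25.2% and 27.7% in DOX-negative libraries. TET2 took 35.1% ± 0.934 in DOX-positive cells and 31.7% ± 0.624 in DOX-negative cells, and TET3 took 46.7% ± 1.02 in DOX-positive cells and 41.6% ± 0.872 in DOX-negative cells (SD, n = 3 each). Per length, TET3 had the largest of the 3 shares in all 6 libraries. Without the length correction, TET2 and TET3 averaged 42.3 and 41.9 CPM in DOX-positive cells. In DOX-negative cells they averaged 46.3 and 45.3 CPM. Their order thus rests on the deposited lengths, 16474 bases for TET2 and 12271 bases for TET3. None of the 3 shares overlapped between the groups (exact two-sided permutation p = 0.10 for each, the smallest possible). The shares of a library sum to the whole, so they are not separate results.

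MBD2 (ENSG00000134046.12, chromosome 18, 54151601 to 54224788 on the minus strand), the methyl-CpG-binding subunit, rose. It had 151.4, 154.0 and 154.8 CPM in DOX-positive libraries, against 96.6, 94.4 and 103.0 CPM in DOX-negative libraries. The DOX-positive values lay within 4 CPM of each other and far above every DOX-negative value. The log2 fold change was 0.65 (SE 0.04, edgeR adjusted p = 1.82e-10), or 1.57-fold, higher than that of 91.0% of the genes tested.

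MBD3 (ENSG00000071655.18, chromosome 19, 1573596 to 1592801 on the minus strand), its counterpart in NuRD, fell. It had 24.8, 24.5 and 24.4 CPM in DOX-positive libraries, against 37.2, 36.7 and 35.2 CPM in DOX-negative libraries. The groups did not overlap, and the log2 fold change was -0.57 (SE 0.04, edgeR adjusted p = 7.89e-10), a 1.48-fold lower level in DOX-positive cells. In GENCODE 29 the gene AC005943.1 shares 767 exon bases with MBD3 on the same strand, or 9.78% of the exon bases of MBD3. AC005943.1 had 0 reads in the 6 libraries, so reads in the shared bases may have been left uncounted and the level of MBD3 may be understated.

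The opposite movements of MBD2 and MBD3 changed their ratio within every library. Per length, MBD2 exceeded MBD3 8.49, 8.75 and 8.84 times in DOX-positive libraries and 3.61, 3.58 and 4.07 times in DOX-negative libraries. The ratio was 2.32-fold higher in DOX-positive cells (exact two-sided permutation p = 0.10, the smallest possible). The ratio carries the uncertainty of the MBD3 count.

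**Figure D3:**
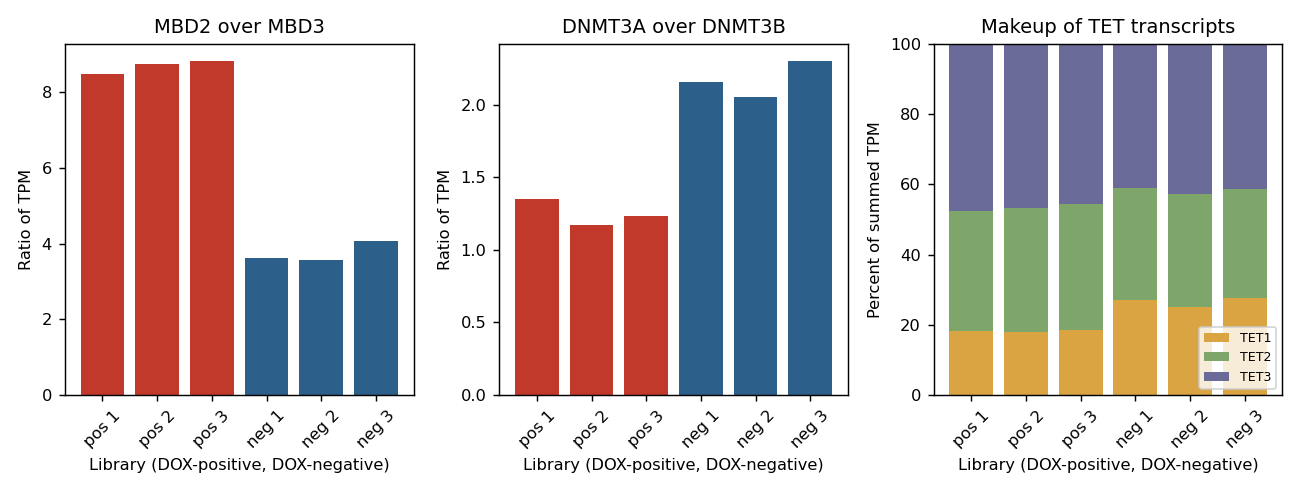
Ratio of TPM of MBD2 over MBD3 (left) and DNMT3A over DNMT3B (middle), and percent of the summed TPM of the 3 TET genes (right), in DOX-positive libraries 1 to 3 and DOX-negative libraries 1 to 3. Bars start at 0; MBD2 over MBD3 is 8.49 to 8.84 in DOX-positive and 3.58 to 4.07 in DOX-negative libraries.

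Per length, the 9 genes formed an abundant and a scarce group in both arms. In DOX-positive cells MBD2 stood highest at 86.5 ± 2.21 TPM, then DNMT1 at 77.5 ± 0.964 TPM and UHRF1 at 66.6 ± 1.56 TPM (SD, n = 3). The other 6 genes of DOX-positive cells lay between 2.76 TPM (DNMT3B) and 11.0 TPM (TET3). In DOX-negative cells the order of the abundant genes was DNMT1 at 90.2 ± 5.27 TPM, UHRF1 at 73.7 ± 5.05 TPM and MBD2 at 64.3 ± 4.54 TPM (SD, n = 3), and the other 6 lay between 4.37 TPM (DNMT3B) and 17.1 TPM (MBD3). MBD2 was thus the most abundant of the 9 in DOX-positive cells and the third in DOX-negative cells. In DOX-positive cells no neighbours in the order overlapped across libraries. However, MBD3 (9.95 ± 0.108 TPM) came next below TET3 there and may be undercounted, so the order of these genes is uncertain. In DOX-negative cells TET2 (10.5 ± 0.639 TPM) overlapped with DNMT3A (9.48 ± 0.392 TPM), and DNMT3A with TET1 (8.85 ± 1.02 TPM), so their order there is not set. TPM values are compared here between genes of the same library only, because the median gene moved by -0.26 on the log2 scale between the groups in TPM.

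**Figure D4:**
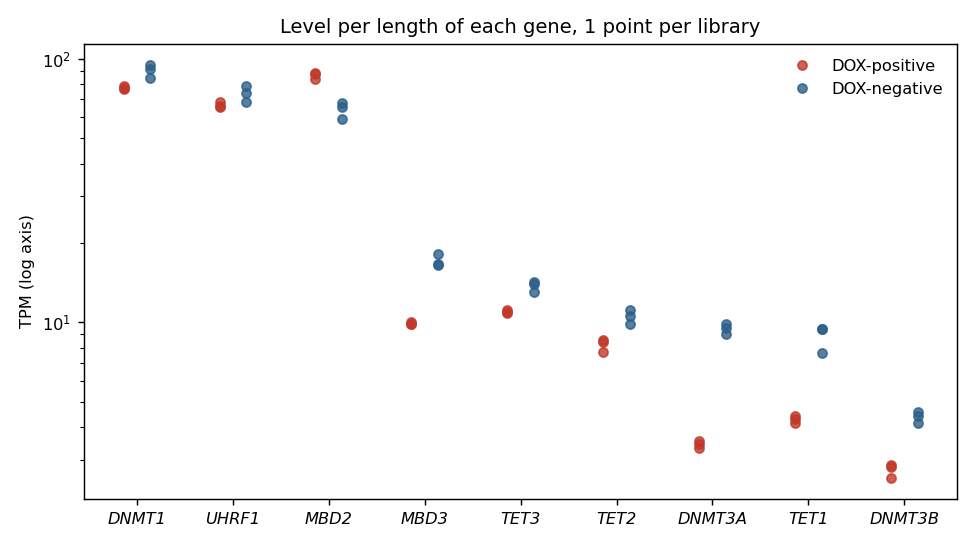
TPM (log axis) of each of the 9 genes, 1 point per library, DOX-positive in red and DOX-negative in blue, ordered by the DOX-negative mean. DNMT1, UHRF1 and MBD2 lie above 59 TPM in every library and the other 6 genes below 19 TPM.

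The genes whose pattern was most like those of the outer members were found by Pearson correlation of log2 CPM over the 6 libraries, among 15008 genes with a mean of at least 1 CPM. For MBD2 they were MAN2A1, LYPLA1 and ZBTB38, and for DNMT3A they were IFI44L, LAMB2 and SCARF2, with r from 0.9997 to 0.9999. A correlation of at least 0.95 was reached by 25.7% of genes for MBD2 and 19.8% for DNMT3A, since the 6 libraries fall into 2 groups. IFI44L, an interferon-stimulated gene, had a log2 fold change of -3.53, and LAMB2, a laminin chain, -0.53.

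Other genes of the methyl-CpG reader families moved in both directions. Among 9 such genes, which include MBD5 and MBD6, family members whose domain does not bind methylated CpG, there were 5 that rose and 3 that fell, and the median log2 fold change was 0.13. Scaling by total reads alone gave 3 of each and a median of -0.02. Over all genes tested the main fit called 27.6% higher and 28.9% lower. MBD5 fell by 0.96 on the log2 scale. The UHRF1 paralogue UHRF2 had 72.6 ± 1.82 CPM in DOX-positive cells and 55.2 ± 0.364 CPM in DOX-negative cells, a log2 fold change of 0.40. The zinc finger reader ZBTB38 had a log2 fold change of 0.35.

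A list of genes linked to the methyltransferases, which holds both partners and genes that oppose methylation such as QSER1, was mostly lower. Of 15 tested, 10 fell and 1 rose, with a median of -0.14, where 28.9% of all genes tested fell and 27.6% rose. The number that fell was 13 with total reads alone, 8 with DESeq2 size factors and 8 without DOX-negative replicate 1. The other gene of the list, DNMT3L, a catalytically inactive stimulator of DNMT3A, had too few reads to be tested. HELLS and CDCA7, which form a remodelling complex needed for methylation of heterochromatin, fell by 0.50 and 0.36 on the log2 scale. HELLS had 117.2 ± 2.95 CPM in DOX-positive cells and 166.0 ± 8.06 CPM in DOX-negative cells. KDM1B, a histone H3K4 demethylase required in mice for methylation of maternal imprints, fell by 0.81, and QSER1, which with TET1 protects promoters from de novo methylation, fell by 0.60. The gene that rose, named after its values were seen, was USP7, a deubiquitinase that binds DNMT1 and UHRF1, by 0.29 on the log2 scale.

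Genes of TET function and base excision repair were split, with 8 of 15 higher and 6 lower and a median of 0.20. With total reads alone 7 were higher and 6 lower. The shares over all genes tested in the main fit were 27.6% higher and 28.9% lower. GADD45A, a stress-induced gene linked to active demethylation, had 38.3 ± 1.13 CPM in DOX-positive cells and 17.2 ± 1.83 CPM in DOX-negative cells (log2 fold change 1.15, edgeR adjusted p = 3.46e-11). PARP1, which acts in repair, had a log2 fold change of 0.50. OGT, the glycosyltransferase bound by TET2 and TET3, fell by 0.50, and CXXC5, a CpG-binding protein known to interact with TET2, fell by 0.84 on the log2 scale. The GADD45A paralogue GADD45G, named after its values were seen, had the largest change of the list, with 0.559 ± 0.0498 CPM in DOX-positive cells and 1.46 ± 0.0462 CPM in DOX-negative cells (log2 fold change -1.39, edgeR adjusted p = 2.50e-06).

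In the methyl donor cycle 6 of 15 genes rose and 5 fell, with a median of 0.00, or 2 and 7 with total reads alone. Of all genes tested 27.6% rose and 28.9% fell in the main fit. Both subunits of the enzyme that makes S-adenosylmethionine outside the liver were lower. MAT2A, its catalytic subunit, had 191.2 ± 6.12 CPM in DOX-positive cells and 256.0 ± 3.95 CPM in DOX-negative cells (log2 fold change -0.42, edgeR adjusted p = 1.45e-08). MAT2B, its regulatory subunit, fell by 0.41 on the log2 scale. MTHFD2, a mitochondrial folate enzyme, fell by 0.36, and the methionine synthase gene MTR had a log2 fold change of 0.34.

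The NuRD subunits with which MBD2 and MBD3 assemble were divided: 5 of 13 were higher and 7 lower, at a median of -0.08, or 4 and 8 with total reads alone. All genes tested had shares of 27.6% higher and 28.9% lower in the main fit. GATAD2A had a log2 fold change of 0.54, CDK2AP1 0.39, RBBP7 0.30 and the deacetylase HDAC1 0.26. The largest change on this list, named after its values were seen, was a fall by 0.62 on the log2 scale in the remodeller gene CHD5, with 2.89 ± 0.0799 CPM in DOX-positive cells and 4.45 ± 0.330 CPM in DOX-negative cells.

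DNMT1 and UHRF1 are known to be expressed mainly in dividing cells, so S-phase genes were set beside them. Of 17, 12 rose and 2 fell, at a median log2 fold change of 0.20, where 27.6% of all genes tested rose and 28.9% fell. Scaling by total reads alone gave 6 and 4 and a median of 0.06. The cyclin E gene CCNE1 had 17.8 ± 1.27 CPM in DOX-positive cells and 9.33 ± 0.0233 CPM in DOX-negative cells (log2 fold change 0.93). E2F1 had a log2 fold change of 0.49, RRM1, a ribonucleotide reductase subunit, 0.45, and GINS2, a subunit of the replicative helicase, 0.45. The values of DNMT1 (-0.00159) and UHRF1 (0.07) lay below the median of this list. The part of cell cycle phase in any difference was not tested.

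Genes known to be methylated in prostate cancer did not move as a block. Of 12 tested, 5 rose and 5 fell, where 27.6% of all genes tested rose and 28.9% fell. The median of the list was 0.01, which was -0.14 with total reads alone. AOX1, an aldehyde oxidase, had 19.9 ± 0.221 CPM in DOX-positive cells and 2.11 ± 0.174 CPM in DOX-negative cells (log2 fold change 3.25, edgeR adjusted p = 1.74e-15). GPX3, a glutathione peroxidase, had 88.3 ± 4.67 CPM in DOX-positive cells and 20.02 ± 0.927 CPM in DOX-negative cells (log2 fold change 2.14). PTGS2, the inducible cyclooxygenase, had a log2 fold change of 2.57. GSTP1, a glutathione transferase, had 28.3 ± 2.17 CPM in DOX-positive cells and 44.6 ± 3.64 CPM in DOX-negative cells (log2 fold change -0.66). EDNRB and TIMP3 had 0 reads in every library.

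Of 21 germline genes, a class held silent in somatic cells largely by promoter methylation, 6 had enough reads to be tested and 10 had 0 reads in every library. Among the 6, STK31 rose, with 12.4 ± 0.361 CPM in DOX-positive cells and 4.88 ± 0.640 CPM in DOX-negative cells (log2 fold change 1.35, edgeR adjusted p = 4.44e-10). SYCP3, a component of the meiotic chromosome axis, fell by 0.72 on the log2 scale, and 4 did not pass. For comparison, 27.6% of all genes tested rose and 28.9% fell. All 5 MAGEA and MAGEB genes of the list had 0 reads in both groups, although reads of near-identical family members may have been left uncounted.

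**Figure D5:**
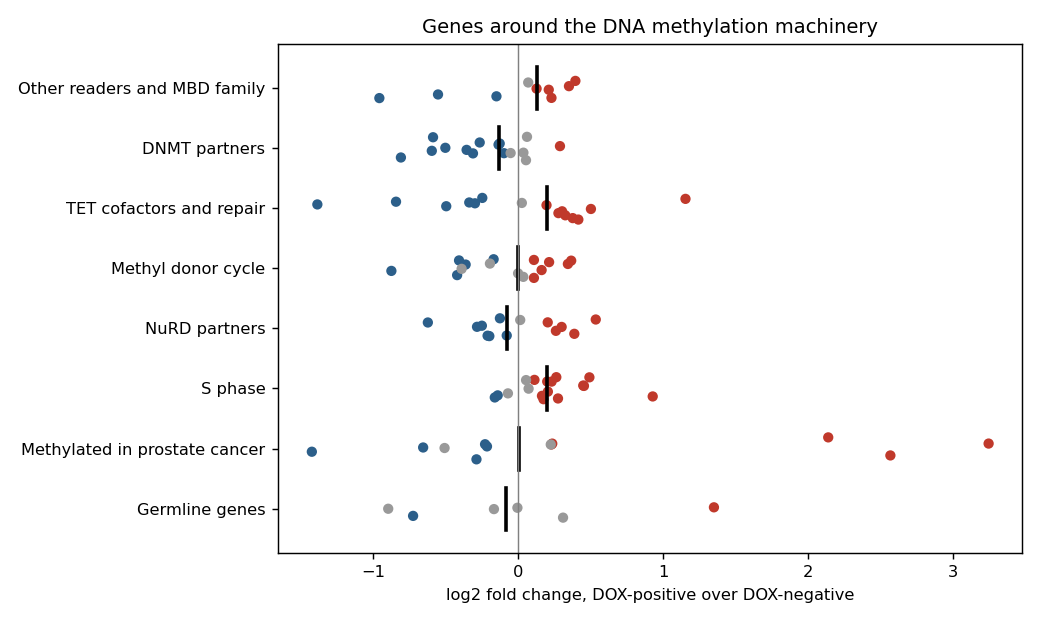
log2 fold change (DOX-positive over DOX-negative) of the tested genes of 8 lists, 1 point per gene, red for higher, blue for lower and grey for not called at an edgeR adjusted p under 0.05. Black bars are medians, which lie between -0.14 (DNMT partners) and 0.20 (S phase, and TET cofactors and repair).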

How the data were processed

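RNA of 6 cultures was sequenced as polyadenylated, strand-specific libraries, per the labels' protocols. The authors deposited raw read counts per gene and a gene length in bases. Per the submitters' processing notes, the build was GRCh38.p7 and the tools included STAR 2.7.9a and DESeq2 1.24.0, besides CASAVA 1.8.2. The counting tool, annotation, strand setting and treatment of shared reads are not given in the sources used, so genes that overlap others are uncertain. Groups and replicate numbers came from the sample titles.

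Counts were tested with edgeR 4.0.16 (R 4.3.3) by its quasi-likelihood test, fitting group alone, TMM scaling and the default filterByExpr (minimum count 10, minimum total 15), with Benjamini-Hochberg adjustment over all 24695 genes tested. Log2 fold changes are DOX-positive over DOX-negative; the SE is the absolute log2 fold change over the square root of F. TPM used the deposited lengths, which for the 9 genes were 97.9% to 103.5% of their summed exon bases in GENCODE 29 and can understate genes with many isoforms. Ratios and shares were tested by exact permutation over libraries. The test was checked on simulated counts.

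The labels speak of triplicate cultures only, so p-values reflect only how these cultures vary. Chi-square per degree of freedom between libraries of a group was 6.40 to 20.8, so no 2 agreed within sampling noise. A floor of 3 reads was 0.0204 to 0.0328 CPM and covers counting error only. Alternatives were other scalings and filters, DESeq2 1.42.0, limma-voom (limma 3.58.1), a block for replicate number, and the omission of each library. Members and lists were chosen with earlier results of these data known. Named genes are the 9 members, MUC1, up to 4 genes per list with the smallest p-values among those called, and the 3 genes most correlated with the members that rose and fell most; others are marked, or are listed as at or near 0 reads. Some genes that the rule or the marker lists cover are not reported here. Positions are from GENCODE 29 and promoters from RefSeq. Figures used matplotlib 3.10.9.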

Additional observations from a re-analysis of the deposited data

How the results depend on the processing

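DNMT3A, DNMT3B, TET1, MBD2 and MBD3 kept their direction and their call under all 14 alternatives, between -1.39 and -1.20 (DNMT3A), -0.59 and -0.40 (DNMT3B), -0.96 and -0.76 (TET1), 0.50 and 0.70 (MBD2), and -0.71 and -0.53 (MBD3) on the log2 scale. DNMT1 had values of 0.0254 with DESeq2 size factors, 0.0176 without a filter and 0.0255 with the DESeq2 Wald test, against the sign of its main value and without passing, and passed as lower (-0.14) with total reads alone. UHRF1 had -0.0709 with total reads alone, and passed as higher without a filter (0.0917) and with the DESeq2 Wald test (0.0997), which brought the count of the 9 genes called higher to 2. TET2 did not pass with DESeq2 size factors (-0.10) or the Wald test (-0.10), nor TET3 (-0.0847 and -0.0844). With each library left out in turn, the log2 fold change ran from -0.0189 to 0.0309 for DNMT1, 0.04997 to 0.116 for UHRF1, -0.150 to -0.0912 for TET2 and -0.124 to -0.0836 for TET3. The count called higher then ran from 1 to 2 and the count called lower from 4 to 6. Of the medians of lists, that of the other reader families turned to -0.0163 with total reads alone. That of the methyl donor cycle (-0.000304) was 0.0267 with DESeq2 size factors, 0.0191 without a filter, 0.0353 with at least 1 CPM in 3 libraries, 0.0271 with the Wald test, 0.00184 with limma-voom and -0.0177 to 0.0344 with a library left out. That of genes methylated in prostate cancer was -0.0545 with upper-quartile scaling, -0.14 with total reads alone, -0.20 without a filter, 0.19 with at least 1 CPM in 3 libraries and -0.00854 to 0.0413 with a library left out, and that of germline genes (-0.0859) was -0.71 without a filter and -0.185 to 0.0817 with a library left out. The cause was not tested. Other scalings moved the median of all genes by at most 0.06. The split of calls was 6825 higher and 7132 lower in the main fit, against 4689 and 9579 with total reads alone. It was 5926 higher and 8051 lower with upper-quartile scaling, and 7195 and 6684 with DESeq2 size factors.

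Same-numbered libraries did not deviate together (correlations -0.22, -0.07 and 0.02 over 15009 genes), and no library correlated best with its own number. Deviations from means of 3 libraries cannot show that the numbers carry no pairing. With the replicate block 13503 genes were called in place of 13957, and the 9 genes kept their calls. The ratios and shares cannot pass a threshold of 0.05 at 3 against 3. DNMT3B, at 397 reads or more per library, has the least precise change of the 9.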
